A study of Mus musculus with 23 samples.

Results

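The comparison of DC2 with DC1b cells after TLI used 7 of the 23 RNA-seq libraries of the series, picked by their labels alone. There were 3 libraries of DC2 (pools 1, 3 and 4) and 4 of DC1b (pools 1 to 4). All came from the spleens of wild type Balb/C mice given TLI, a treatment that the labels name only by these letters. DC2 cells were dendritic cells (DC) sorted as CD8lo CD172hi, and DC1b cells were sorted as CD8Int CD172+, where CD172 is SIRPα. Each library came from a pool of mice, and populations with the same pool number came from the same pool. Pools 1 and 2 were in batch 1 and pools 3 and 4 in batch 2, and no DC2 library of pool 2 was analysed here. For comparison there were 2 DC2 and 2 DC1b libraries of untreated wild type Balb/C mice, all in batch 1. The 4 libraries of DC1a cells (CD8hi CD172-) of TLI mice shared the estimate of the spread. The labels give no age, and no allele or transgene beyond the wild type.

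Classical dendritic cells fall into 2 lineages. The DC1 lineage depends on the transcription factors IRF8 and BATF3, takes up dying cells through receptors such as CLEC9A and presents their antigens to CD8 T cells, and carries XCR1, CD205, CD103 and, in some tissues, langerin. The DC2 lineage depends more on IRF4, carries SIRPα and CD11b, and is known for presenting antigen on MHC class II to CD4 T cells. In the spleen, CD8 on a dendritic cell marks the DC1 lineage. The comparison asks which genes set the CD172hi gate apart from the intermediate gate in mice that had received TLI.

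The 7 libraries held 23074740 to 36113735 counts, so that 3 counts in a library stood for 0.0831 to 0.13 CPM (the count scaled to the library's total). The genes of the sorting markers did not always follow the gates. Sirpa, which encodes CD172, was at 36.7, 9.22 and 309 CPM in the DC2 libraries of pools 1, 3 and 4 and at 146, 141, 5.09 and 6.55 CPM in the DC1b libraries of pools 1 to 4. The highest library was of DC2, but DC2 of pools 1 and 3 lay below DC1b of pools 1 and 2, and the fitted difference of 0.56 ± 2.12 (log2, SE) was not called by edgeR's quasi-likelihood test (adjusted p = 0.964). Cd8a was at 1.06, 0.572 and 0.276 CPM in DC2 and at 302, 342, 79 and 0.327 CPM in DC1b, so that the DC1b library of pool 4 had almost none (adjusted p = 0.145). Taking 10 CPM as a limit, DC1b of pools 3 and 4 and DC2 of pool 3 were under it for a gene of a marker that their gate required, so that their transcripts went against their labels. Whether each of these 3 libraries holds the population of its label is thus in question. Their values are given under their labels, and the calls also without them.

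Transcripts of other cells also differed between the gates. The 16 neutrophil markers listed summed to 21970, 1576, 1783 and 9333 CPM in DC1b and to 2374, 227 and 146 CPM in DC2. In the untreated DC2 and DC1b libraries they summed to at most 66.2 CPM. Immunoglobulin genes took 5.20%, 1.81%, 10.3% and 7.22% of the counts in DC1b and 3.27%, 0.207% and 2.46% in DC2, although by the study's methods the gate was negative for B220 and Gr-1, among other markers. Hemoglobin genes took 2.34% to 6.21% in the 3 libraries of batch 1 and 0.163% to 0.712% in the 4 of batch 2. Monocyte and macrophage markers summed to 8731 to 27510 CPM in DC1b and to 6404 to 16220 CPM in DC2. NK cell markers summed to 658, 323, 163 and 152 CPM in DC1b and to 479, 750 and 443 CPM in DC2, so that in batch 2 they were higher in DC2. Within a gate, fewer cells of a type and less RNA per cell cannot be told apart in such bulk libraries.

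**Figure D1:**
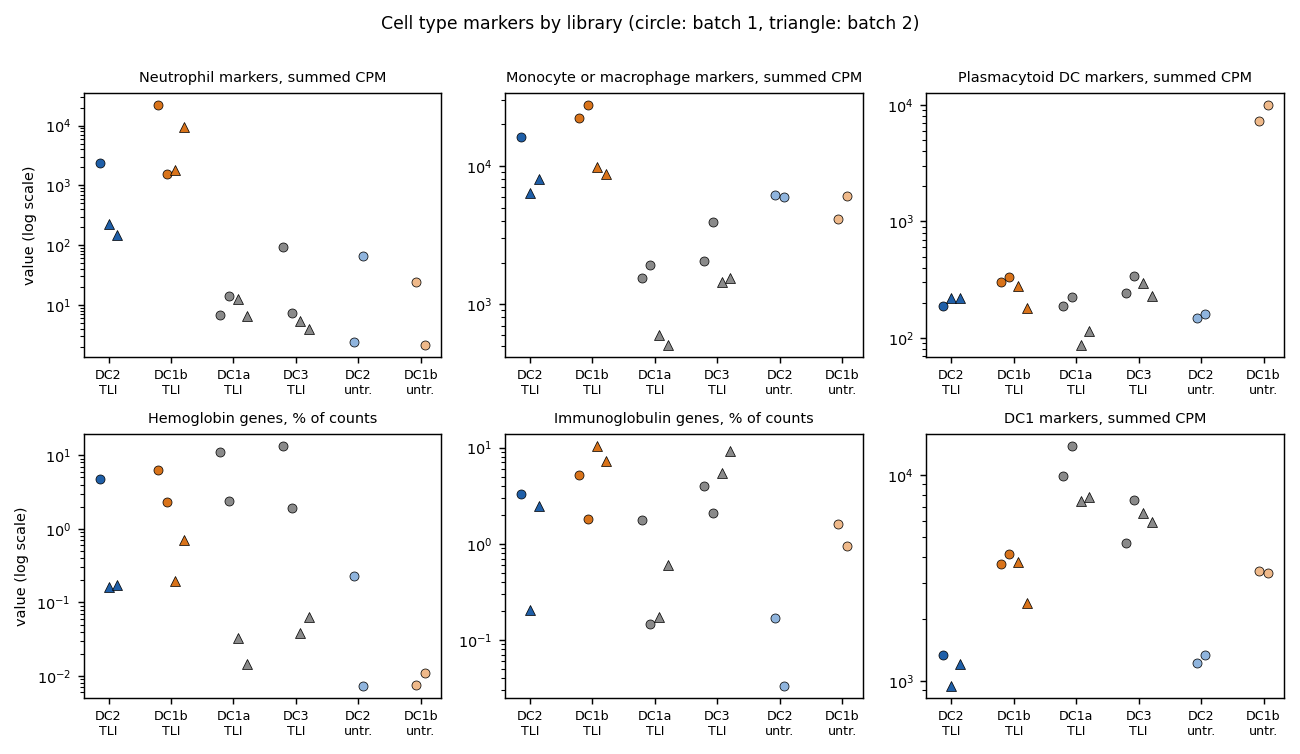
Summed CPM of marker lists and the percentage of counts from hemoglobin and immunoglobulin genes, each on a log axis, with 1 point per library (circles batch 1, triangles batch 2) for the TLI groups and untreated DC2 and DC1b. DC1 markers sum to 946 to 1335 CPM in DC2 and to 2389 to 4110 CPM in DC1b after TLI, and plasmacytoid DC markers reach 7280 and 9951 CPM only in untreated DC1b among the groups shown.

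Of 15708 genes tested after TLI, 14 (0.0891%) differed between DC2 and DC1b at an adjusted p under 0.05 by edgeR's quasi-likelihood test, and all 14 were lower in DC2. No gene was called higher (0%), although 650 genes (4.14%) were higher and 815 (5.19%) lower at an unadjusted p under 0.05, and DESeq2 called 253 genes higher and 487 lower. The test needed large differences: the biological coefficient of variation was 1.04. Without the 4 DC1a libraries, which shared the estimates of spread and batch, 0 genes were called (864 at an unadjusted p under 0.05). All 14 kept their direction in that fit of 7 libraries. Each of the 14 genes was lower in DC2 than in DC1b in all 3 pools that held both, and had a fitted difference below 0 in each batch. The 14 were called on these same libraries, so their choice favoured such agreement in direction, and it is no separate support. For 12 of the 14, the mean of DC1a was above that of DC1b, the exceptions being Nudt17 and Igkv6-23.

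**Figure D2:**
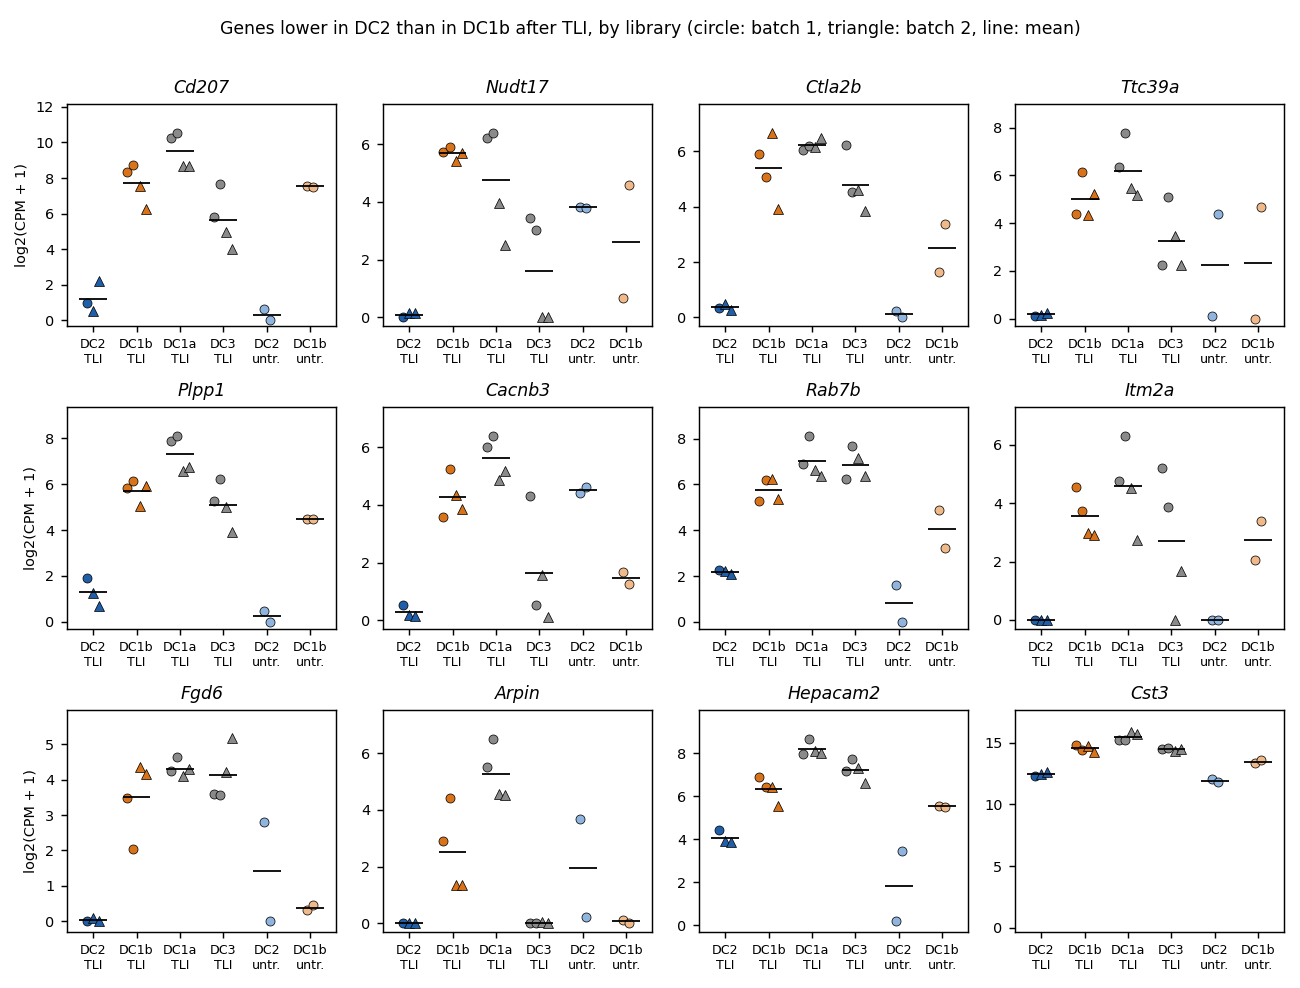
Level of each of the 12 named genes lower in DC2, as log2(CPM + 1), with 1 point per library (circles batch 1, triangles batch 2) and a line at each group's mean. In every panel the 3 DC2 libraries after TLI lie below the 4 DC1b libraries, which the rule that chose these genes required. Untreated DC2 lies above untreated DC1b in both libraries for Cacnb3.

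Among the called genes was Cd207 (chromosome 6, 83671215 to 83677857, minus strand, GRCm38), which encodes langerin, a C-type lectin of Langerhans cells and of part of the DC1 lineage. Its 250 bases of promoter are shown because they end in the letters of an AP-1 site, a motif that BATF3 shares with other factors of its family. Those of Ctla2b (chromosome 13, 60895350 to 60897447, minus strand) are shown beside it as the other called gene with that motif. Capitals mark the match, the sequences are from RefSeq (GRCm38.p6), each reads 5′ to 3′ on the gene's strand, and the last base adjoins the start of transcription.
Cd207, chr6:83677858-83678107, minus strand: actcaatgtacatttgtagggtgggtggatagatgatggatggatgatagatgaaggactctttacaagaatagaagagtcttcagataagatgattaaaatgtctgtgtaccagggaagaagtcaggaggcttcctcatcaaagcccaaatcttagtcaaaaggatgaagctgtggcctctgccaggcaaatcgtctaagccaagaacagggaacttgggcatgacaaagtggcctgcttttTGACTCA
Ctla2b, chr13:60897448-60897697, minus strand: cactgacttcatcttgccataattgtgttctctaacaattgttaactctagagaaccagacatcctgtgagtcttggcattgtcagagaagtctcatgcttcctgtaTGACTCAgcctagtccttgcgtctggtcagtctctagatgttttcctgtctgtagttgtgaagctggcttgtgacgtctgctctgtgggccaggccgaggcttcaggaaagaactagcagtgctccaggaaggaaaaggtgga

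The motif searched was TGANTCA on both strands. It starts at base -7 of Cd207 and at base -143 of Ctla2b, counted back from the start. Of the 12 named genes, 10 had a promoter in the table, and 2 of these 10 held the motif, against 6.87% of all 27025 promoters of that length. The letters of an E-box, CAGCTG, were in 2 of the 10 (Hepacam2 and Cst3) and in 12.9% of all. None of the 10 held the AICE motif, a composite of an IRF site with AP-1 that contains the first motif (0.0962% of all), the EICE motif of ETS with IRF (2.37%), the ISRE core of paired IRF sites (3.06%) or GAGGAAGT, a PU.1 site (2.46%), each searched on both strands. A single window was kept per symbol, that of lowest coordinate. The windows of Ttc39a, Cacnb3 and Hepacam2 lie within the spans given for these genes, so another start may be used there. Such matches describe the letters of these windows only.

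Langerin transcripts were near 0 in the CD172hi gate. Cd207 was at 0.936, 0.422 and 3.59 CPM in DC2 and at 322, 431, 186 and 76 CPM in DC1b, so that the groups lay far apart. The means were 1.65 ± 1.7 CPM (SD, n = 3) and 254 ± 155 CPM (SD, n = 4), a 154-fold difference (374-fold without DC2 of pool 4), with a fitted log2 fold change of -6.96 ± 0.95 (SE; edgeR adjusted p = 0.0355). DC1a libraries held more, with a mean of 876 CPM. In untreated mice the order was alike, with 0.57 and 0 CPM in DC2 and 190 and 178 CPM in DC1b. With the pool of mice as a block in place of batch, the call of Cd207 was lost (edgeR adjusted p = 0.133).

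A pair of the called genes act in the endosome or on its proteases, and both varied little between pools. Cst3 (chromosome 2, 148871722 to 148875692) encodes cystatin C, a secreted inhibitor of cysteine proteases such as the cathepsins. It was at 4968, 5600 and 6410 CPM in DC2 and at 28100, 21680, 26400 and 19670 CPM in DC1b, which made it one of the most abundant transcripts of the DC1b gate. The means of 5660 ± 723 CPM (SD, n = 3) and 23960 ± 3947 CPM (SD, n = 4) differed 4.23-fold, with a log2 fold change of -2.37 ± 0.23 (SE; edgeR adjusted p = 0.00661). Cst3 was called also with the pool as a block (edgeR adjusted p = 0.0382), and in untreated mice it was at 4244 and 3539 CPM in DC2 against 10180 and 12180 CPM in DC1b (log2 fold change -1.44, adjusted p = 0.00921). The difference after TLI exceeded the untreated one by 0.90 on the log2 scale, which was not called (edgeR adjusted p = 0.435).

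Rab7b (chromosome 1, 131688695 to 131715439) encodes a small GTPase that directs traffic between late endosomes and the Golgi. It was at 3.87, 3.62 and 3.24 CPM in DC2 and at 37.9, 73.1, 73.5 and 40.1 CPM in DC1b, a 15.7-fold difference of the means. The fitted log2 fold change was -4.14 ± 0.49 (SE; edgeR adjusted p = 0.0196, and 0.0382 with the pool as a block). In untreated mice Rab7b was at 2.03 and 0 CPM in DC2 and at 28.2 and 8.36 CPM in DC1b. Ppt1, a lysosomal thioesterase named here after its values were seen, was at 230, 180 and 91.9 CPM in DC2 and at 1371, 1631, 1727 and 677 CPM in DC1b, but did not pass the test (edgeR adjusted p = 0.0644), and it overlaps Cap1 on the other strand. Of the 21 lysosomal genes tested, Cst3 was the single call. Their median log2 fold change was -0.23, beside -0.06 over all genes tested.

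Other called genes encode proteins of the cell membrane. Plpp1 (chromosome 13, 112800792 to 112867894) encodes a membrane phosphatase of lysophosphatidic acid and related lipids. It was at 2.76, 1.39 and 0.621 CPM in DC2 and at 55.2, 68.5, 31.6 and 58.6 CPM in DC1b, which is 33.6-fold between the means, or 53.3-fold without DC2 of pool 1. Its log2 fold change was -5.29 ± 0.47 (SE; edgeR adjusted p = 0.00624, and 0.0382 with the pool as a block). Part of Plpp1 lies opposite Mtrex, and strand was not stated for the counting. Untreated DC2 held 0.407 and 0 CPM and untreated DC1b 21.4 and 21 CPM.

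Hepacam2 (chromosome 6, 3457096 to 3498298), a cell surface protein of the immunoglobulin superfamily, was at 20.8, 13.9 and 13.6 CPM in DC2 and at 118, 84.9, 83.8 and 45.4 CPM in DC1b. It was 5.16-fold lower in DC2 by the means, with a log2 fold change of -2.51 ± 0.32 (SE; edgeR adjusted p = 0.0343, and 0.133 with the pool as a block). Itm2a (chromosome X, 107397099 to 107403376), which encodes an integral membrane protein, had no count in any DC2 library and was at 22.6, 12.5, 6.98 and 6.46 CPM in DC1b. With 3 counts per library as the floor, Itm2a was at least 113-fold lower in DC2 (edgeR adjusted p = 0.0343, and 0.151 with the pool as a block). Both untreated DC2 libraries also had none of it, against 3.15 and 9.59 CPM in untreated DC1b.

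Ctla2b, a small protein that resembles the inhibitory propeptide of cathepsins, was at 0.255, 0.392 and 0.207 CPM in DC2 and at 58.6, 32.3, 101 and 14.2 CPM in DC1b. The log2 fold change of Ctla2b was -7.75 ± 0.82 (SE; edgeR adjusted p = 0.0100, and 0.0382 with the pool as a block). Its reads are uncertain, since it overlaps Gm49391 and Gm49392 on the same strand and resembles Ctla2a. Ttc39a (chromosome 4, 109406623 to 109444745), a protein with tetratricopeptide repeats, was at 0.0851, 0.12 and 0.172 CPM in DC2 and at 20.1, 69.9, 19.3 and 35.9 CPM in DC1b. Its log2 fold change was -8.04 ± 0.86 (SE; edgeR adjusted p = 0.0100, and 0.0207 with the pool as a block). Ttc39a did not separate the gates in untreated mice, where DC2 had 0.0814 and 20.1 CPM and DC1b 0 and 24.7 CPM.

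Nudt17 (chromosome 3, 96706067 to 96708562), an enzyme of the nudix hydrolase family, was nearly constant in DC1b at 52.6, 58.5, 42.4 and 50.7 CPM and was at 0, 0.0904 and 0.103 CPM in DC2. The ratio of its DC1b level to its pooled DC2 counts was 729 (95% counting interval 335 to 1987; edgeR adjusted p = 0.0355, and 0.153 with the pool as a block). Nudt17 lies opposite Pias3, so its reads are uncertain. In untreated mice it was at 13.3 and 12.8 CPM in DC2 and at 0.565 and 23.2 CPM in DC1b, and the gates overlapped.

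A further 3 called genes had the opposite order of means in untreated mice. Cacnb3 (chromosome 15, 98630840 to 98644529), a subunit of voltage-gated calcium channels, was at 0.425, 0.12 and 0.103 CPM in DC2 and at 10.9, 37.2, 19.4 and 13.7 CPM in DC1b (log2 fold change -6.77 ± 0.66, SE; edgeR adjusted p = 0.00661, and 0.0558 with the pool as a block). Untreated DC2 held 20.6 and 23.4 CPM of it and untreated DC1b 2.21 and 1.40 CPM. Fgd6 (chromosome 10, 94036001 to 94145339), an exchange factor of the Cdc42 type, was at 0, 0.0603 and 0 CPM in DC2 and at 10.1, 3.08, 19.4 and 16.9 CPM in DC1b, a ratio of 531 that rests on a few counts in DC2 (95% counting interval 147 to 4387, and 351 without DC2 of pool 4; edgeR adjusted p = 0.0355, and 0.151 with the pool as a block). In untreated mice 1 DC2 library held 6.02 CPM of Fgd6 and the other none.

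Arpin (chromosome 7, 79925361 to 79935359) encodes an inhibitor of the ARP2/3 complex, which nucleates branched actin. No DC2 library after TLI had a count of Arpin, and DC1b was at 6.50, 20.4, 1.55 and 1.55 CPM, so that it was at least 70-fold lower in DC2, or at least 29.9-fold without the DC1b library of pool 2 (edgeR adjusted p = 0.0355, and 0.133 with the pool as a block). Untreated DC2 was at 11.9 and 0.156 CPM and untreated DC1b at 0.0942 and 0 CPM. The 1 high untreated DC2 library thus carried the opposite order of both Fgd6 and Arpin.

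The last calls were an immunoglobulin gene and a long noncoding RNA, both named after their values were seen. Igkv6-23, a variable segment of the kappa light chain on chromosome 6, was at 0, 0.572 and 1.24 CPM in DC2 and at 1.17, 2.16, 1154 and 454 CPM in DC1b. Only the DC1b libraries of pools 3 and 4 were high, and DC1b of pool 1 lay below DC2 of pool 4 in CPM (edgeR adjusted p = 0.00072). These DC1b libraries also had the highest shares of immunoglobulin counts, and the part of that in the result was not tested. Gm38832, on chromosome 6, was at 0, 0.151 and 0 CPM in DC2 and at 24.1, 2.97, 37.9 and 47.4 CPM in DC1b (edgeR adjusted p = 0.0355, and 0.133 with the pool as a block).

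With the pool as replicate block, 6 of the 14 were called (Igkv6-23, Ttc39a, Ctla2b, Plpp1, Rab7b and Cst3), and without the 3 libraries under 10 CPM of a sorting gene, Plpp1 and Ctla2b were the 2 of the 14 still called. Leaving out each of the 7 libraries in turn, Cst3, Plpp1 and Igkv6-23 were called 7 times of 7, Cacnb3 6 times, Ctla2b and Ttc39a 5 times, Rab7b 4 times, Cd207, Hepacam2 and Gm38832 2 times, Nudt17, Fgd6 and Arpin once and Itm2a never, with a largest adjusted p of 0.132 by edgeR over these fits (Nudt17).

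Of the 21 markers of the DC1 lineage tested, 19 had a fitted log2 fold change below 0, and Rab7b and Cd207 passed the test (DESeq2 called 14 of the 21 lower). Their median was -2.75, with -2.18 in batch 1 and -2.95 in batch 2, beside -0.06 over all genes. For 13 of the 21, all DC2 libraries lay below all DC1b libraries once CPM was divided by the library's TMM factor (a scaling for composition), and for none above. Over all genes, 3.3% lay wholly below and 2.99% wholly above on that scale, against 2.27% and 4.6% by CPM alone, because the factors were 1.12 to 1.17 in DC2 and 0.952 to 1.03 in DC1b.

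Among DC1 receptors, Xcr1, which senses the chemokine XCL1, was at 4.47, 19.4 and 37.5 CPM in DC2 and at 149, 170, 336 and 263 CPM in DC1b. The groups lay well apart, yet the log2 fold change of -3.99 ± 0.60 (SE) of Xcr1 fell just outside the threshold (edgeR adjusted p = 0.0581). Clec9a, the receptor for exposed actin of dead cells, was at 38.9, 27.2 and 41.2 CPM in DC2 and at 192, 144, 179 and 97.2 CPM in DC1b (-2.36 ± 0.36, SE; edgeR adjusted p = 0.0593), and overlaps Clec1b on the same strand. Itgae, the alpha chain of CD103, was at 0.425, 0 and 0 CPM against 14, 19.7, 33 and 29.1 CPM (edgeR adjusted p = 0.105). Ly75, which encodes CD205, was at 0.553, 5.27 and 8.52 CPM against 37.8, 23, 56.8 and 32.7 CPM (edgeR adjusted p = 0.142).

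Other genes of this list that lay apart without a call were Gcsam and Tlr3, named after their values were seen. Tlr3, the endosomal sensor of double-stranded RNA, was at 4.72, 1.05 and 1.00 CPM in DC2 and at 54.9, 45.2, 158 and 52.9 CPM in DC1b (edgeR adjusted p = 0.0775). Gcsam was at 0.542 to 11.4 CPM in DC2 and at 146 to 291 CPM in DC1b (edgeR adjusted p = 0.0775). These genes were thus separated by library but not by the test. Reads of Tlr3 and Ly75 are uncertain, like those of Bcl6 and Bcl11a below, since each overlaps a gene on the other strand.

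**Figure D3:**
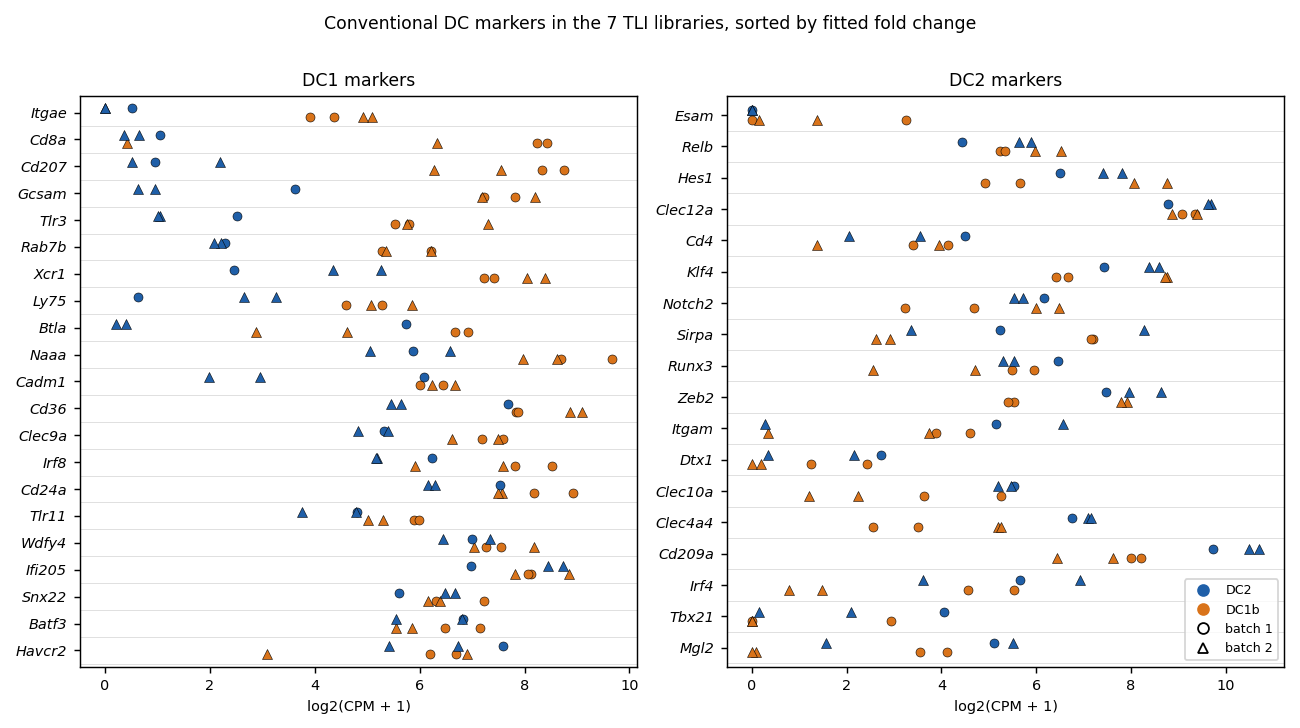
Levels of the 21 DC1 and 18 DC2 markers tested, as log2(CPM + 1), with 1 point per library (blue DC2, orange DC1b, circles batch 1, triangles batch 2) and genes sorted by fitted fold change. For 11 of the 21 DC1 markers the 2 populations do not overlap, and the same holds for Clec4a4 and Cd209a among DC2 markers. Over all genes, 2.27% lie wholly below and 4.6% wholly above DC1b by CPM. Sirpa, Irf4 and Itgam scatter by several log2 units within a population.

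None of the 18 DC2 markers tested was called by edgeR (4 were higher and 1 lower at an unadjusted p under 0.05, and the same numbers by DESeq2), 12 had a fitted difference above 0 and their median was 0.77. Of the 18, Cd209a and Clec4a4 lay wholly above DC1b (11.1%, against 2.99% of all genes after scaling). Cd209a, a DC-SIGN family lectin, was at 853, 1668 and 1436 CPM in DC2 and at 294, 256, 196 and 86 CPM in DC1b, with means of 1319 ± 420 CPM (SD, n = 3) and 208 ± 90.7 CPM (SD, n = 4), and a log2 fold change of 2.56 ± 0.45 (SE; edgeR adjusted p = 0.0993). Clec4a4, the inhibitory lectin DCIR2 of splenic CD8- cells, was at 107, 136 and 141 CPM against 10.3, 4.91, 35.9 and 37 CPM (edgeR adjusted p = 0.421), and was named after its values were seen.

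The other abundant DC2 markers overlapped between the gates. Clec12a was at 442, 826 and 790 CPM in DC2 and at 537, 649, 468 and 669 CPM in DC1b (edgeR adjusted p = 0.91). Klf4, a zinc finger factor needed by part of the DC2 lineage, was at 173, 387 and 332 CPM in DC2 and at 100, 84.5, 436 and 420 CPM in DC1b, where it followed the batch more than the gate. Itgam, which encodes CD11b and overlaps Gm49368, was at 34.7, 0.211 and 94.2 CPM in DC2 and at 23.3, 13.8, 12.3 and 0.268 CPM in DC1b. Esam, an adhesion molecule of Notch2-dependent splenic DC2, had no count in the 3 DC2 libraries and reached 8.49 CPM in 1 DC1b library.

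Genes of the 19 stained surface receptors tested included 1 call (Cd207), with a median of -2.36. After scaling, 8 of them lay wholly below DC1b (42.1%, against 3.3% of all genes). Cd24a was at 184, 70.7 and 77.9 CPM in DC2 and at 487, 289, 188 and 180 CPM in DC1b (edgeR adjusted p = 0.23). Cd1d1, which presents lipids to NKT cells, was at 57.6, 10.4 and 35.9 CPM in DC2 and at 60, 190, 67 and 74.6 CPM in DC1b, a log2 fold change of -1.61 ± 0.51 (SE; edgeR adjusted p = 0.398). Both separated the gates after scaling without passing the test, and Cd24a overlapped by CPM alone.

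Ly6d was at 0.128, 0.12 and 15.5 CPM in DC2 and at 36.8, 16.2, 19.8 and 24.1 CPM in DC1b after TLI, against 0 and 0.208 CPM in DC2 and 151 and 254 CPM in DC1b of untreated mice. Cdh1, which encodes E-cadherin, did not exceed 0.737 CPM in any of the 7 libraries, whereas untreated DC1b held 41.9 and 34.9 CPM of it. Cd4, Cd40, Havcr2, Timd4, Btla and Itgax each had overlapping libraries on the scaled values, with adjusted p-values from 0.517 for Itgax to 0.99 for Cd4 by edgeR.

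None of the 26 transcription factors of DC lineages tested was called by edgeR (1 higher and 3 lower at an unadjusted p under 0.05, 1 and 2 by DESeq2), and their median was 0.41. Irf8, required by the DC1 lineage, was at 74.8, 35.3 and 34.8 CPM in DC2 and at 224, 369, 192 and 59.4 CPM in DC1b (-2.18 ± 0.43, SE; edgeR adjusted p = 0.138). DC1b of pool 4, the library that lacked Cd8a, was the one below DC2 of pool 1. Batf3 was at 113, 45.9 and 111 CPM in DC2 and at 87.9, 141, 56.6 and 45.6 CPM in DC1b, a difference of 0.05 ± 0.38 (log2, SE; edgeR adjusted p = 0.984).

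Irf4, the factor tied to the DC2 lineage, was at 49.6, 11.2 and 121 CPM in DC2 and at 22.5, 45, 0.720 and 1.78 CPM in DC1b, where it split by batch (edgeR adjusted p = 0.536). Id2 was at 1360, 306 and 417 CPM against 1799, 1015, 1358 and 828 CPM (edgeR adjusted p = 0.521). Bcl11a and Ikzf1 were the 2 of the 26 that lay wholly above DC1b after scaling (7.69%, against 2.99% of all genes). Bcl11a, needed for lymphoid and plasmacytoid DC development, was at 77.1, 155 and 146 CPM against 35, 62.8, 10.4 and 30.9 CPM (edgeR adjusted p = 0.394). Ikzf1, which encodes Ikaros, was at 159, 146 and 300 CPM against 76.6, 3.26, 16.7 and 74.1 CPM (edgeR adjusted p = 0.56). Zbtb46, Zeb2, Notch2, Relb and Spi1 overlapped between the gates.

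Genes that were higher in DC2 came closest to the threshold outside these lists, and they were named after their values were seen. Dock10, a guanine nucleotide exchange factor, was at 730, 679 and 817 CPM in DC2 and at 166, 166, 158 and 287 CPM in DC1b, a 3.82-fold difference of the means (1.67 ± 0.24, log2, SE; edgeR adjusted p = 0.0532). In untreated mice Dock10 was at 1652 and 1781 CPM in DC2 and at 796 and 518 CPM in DC1b, a difference that passed (1.48, edgeR adjusted p = 0.0274). Hk2, the hexokinase that opens glycolysis, was at 105, 307 and 357 CPM in DC2 and at 43.1, 27.4, 71 and 96 CPM in DC1b (edgeR adjusted p = 0.0874). Mycbp2, at 568, 647 and 601 CPM against 148, 101, 246 and 238 CPM, and Slc38a2, a glutamine transporter, at 256, 295 and 344 CPM against 104, 66, 97.7 and 107 CPM, both had an adjusted p of 0.105 by edgeR.

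No gene of antigen presentation was called. Of 18 MHC class II genes, 16 had a fitted difference above 0 (4 higher at an unadjusted p under 0.05 by edgeR, 0 by DESeq2), and their median of 0.62 was -0.12 in batch 1 and 0.96 in batch 2. Cd74, the invariant chain, was at 26690, 16250 and 17210 CPM in DC2 and at 18640, 29960, 8986 and 5478 CPM in DC1b, so that the DC1b libraries of batch 2 were the lowest. The same 2 libraries were the lowest for H2-Aa (edgeR adjusted p = 0.979) and H2-Ab1 (adjusted p = 0.732). Of the 17 genes that load MHC class I, 13 were below 0 with a median of -0.48 and none was called (5 lower at an unadjusted p under 0.05 by edgeR, 1 by DESeq2). Among them B2m was at 7127, 8275 and 9786 CPM in DC2 and at 8201, 4629, 8278 and 11250 CPM in DC1b, with overlapping libraries.

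Paired immunoglobulin-like, LILR and MS4A receptors (25 tested) had a median of -0.11 and no call by edgeR (2 higher and 2 lower at an unadjusted p under 0.05, 1 and 2 by DESeq2). Ms4a4c, a membrane protein of the MS4A family, was at 690, 1690 and 1584 CPM in DC2 and at 316, 313, 325 and 563 CPM in DC1b, and lay wholly above DC1b (edgeR adjusted p = 0.206).

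C-type lectins lay on both sides. Of 25 tested, Cd207 was called, and the median was near 0. After scaling, 6 lay wholly above DC1b (Clec4a2, Clec4a4, Clec4b1, Cd209a, Cd209c and Mrc1), which is 24% against 2.99% of all genes. Wholly below were 3 (Clec9a, Cd207 and Ly75), which is 12% against 3.3% of all genes. Of 18 Toll-like receptors and partners none was called (3 lower at an unadjusted p under 0.05 by edgeR, 2 by DESeq2). Tlr3, Tlr11 and Tlr12 lay wholly below DC1b (16.7%, against 3.3% of all genes after scaling). The most abundant members, Cd14, Ly96 and Unc93b1, overlapped.

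Chemokines (21 tested, median 0.15) and costimulatory or inhibitory ligands (16 tested, median -0.20) had no call by edgeR, against 1 higher and 5 lower chemokines and 2 higher and 1 lower ligands at an unadjusted p under 0.05. DESeq2 called 5 chemokines lower and 2 ligands higher. Ccl4, Ccl6 and Ccl3, the most abundant chemokines, had adjusted p-values of 0.547, 0.904 and 0.633 by edgeR, and Cd83, Cd86 and Lgals9, the most abundant ligands, 0.899, 0.971 and 0.604. Of the 30 genes induced by type I interferon, 21 had a fitted difference above 0, with a median of 0.46 and no call by edgeR (2 higher at an unadjusted p under 0.05, 2 by DESeq2). Ifi44 was at 162, 308 and 224 CPM in DC2 and at 80.6, 77.3, 197 and 79.2 CPM in DC1b, and DC1b of pool 3 overlapped DC2. Rtp4 was at 189, 296 and 150 CPM in DC2 and at 113, 81.4, 74.6 and 47.1 CPM in DC1b, apart but not called (edgeR adjusted p = 0.618).

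Lists of growth and stress genes were likewise without a call by edgeR. The 30 cell cycle genes (1 higher and 1 lower at an unadjusted p under 0.05 and by DESeq2) had a median of -0.39, with 0.10 in batch 1 and -0.65 in batch 2. The 22 p53 targets (0 at an unadjusted p under 0.05, 0 by DESeq2) had a median of -0.69, with -0.48 and -0.78 in the batches. Of 82 cytosolic ribosomal protein genes, 81 were below 0 in the fit (5 lower at an unadjusted p under 0.05, 0 by DESeq2), with a median of -0.41, but the median difference of their log2(CPM + 1) was -0.03, so that their direction rested on the scaling.

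**Figure D4:**
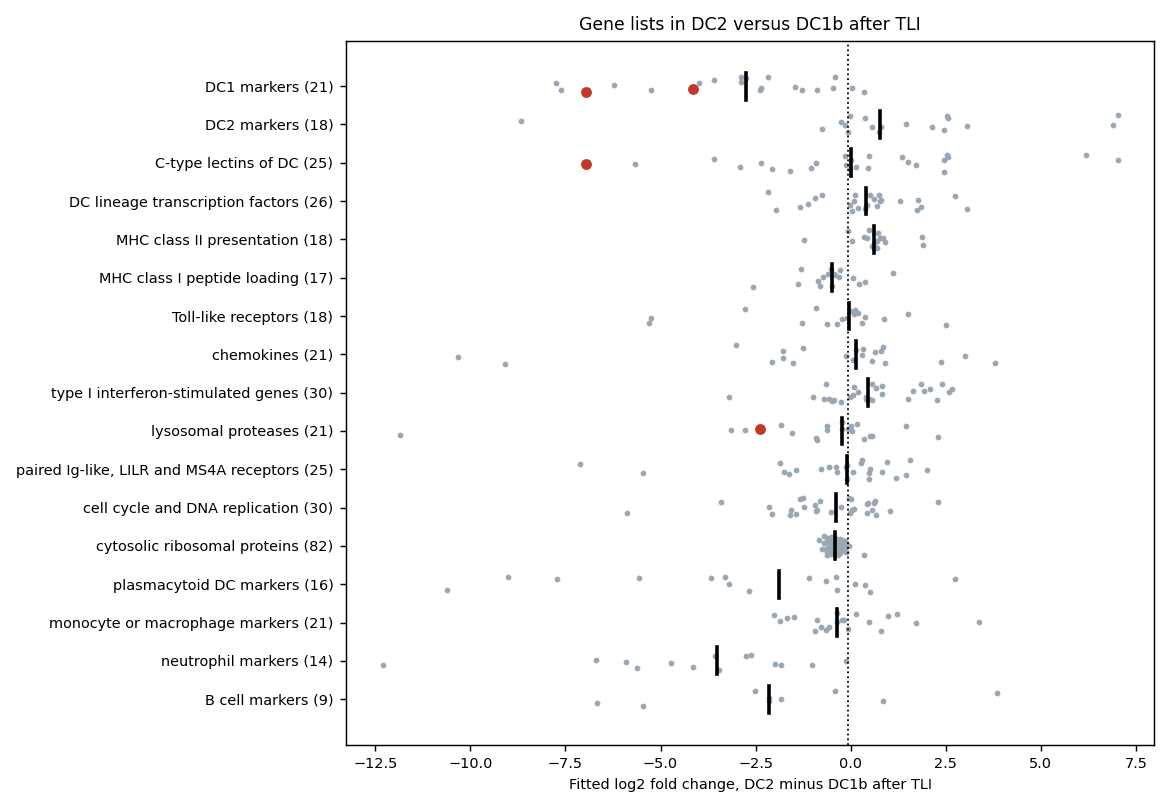
Fitted log2 fold change (DC2 minus DC1b after TLI) of each tested member of 17 gene lists, with the number tested in brackets, a bar at each median, called genes in red and a dotted line at the median of all genes (-0.06). DC1 markers (-2.75) and neutrophil markers (-3.51) have the lowest medians shown, and DC2 markers (0.77) the highest.

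No marker of another cell type was called by edgeR. All 14 neutrophil markers tested were below 0 (6 at an unadjusted p under 0.05, 4 by DESeq2), with a median of -3.51, -2.69 in batch 1 and -4.40 in batch 2. S100a8 was at 762, 131 and 64.8 CPM in DC2 and at 4580, 268, 1041 and 5005 CPM in DC1b (edgeR adjusted p = 0.449), so that DC1b of pool 2 overlapped DC2. S100a9 (adjusted p = 0.447) and Ngp (adjusted p = 0.497) showed the same wide spread. The 9 B cell markers (1 higher and 3 lower at an unadjusted p under 0.05 and by DESeq2) had a median of -2.15 and the 21 monocyte and macrophage markers (4 lower, 2 by DESeq2) one of -0.36. The 16 plasmacytoid DC markers (4 lower at an unadjusted p under 0.05 and by DESeq2) had a median of -1.88. The 10 NK cell markers (2 higher and 3 lower at an unadjusted p under 0.05, 1 and 2 by DESeq2) had a median of -1.75. Klrk1 and Klrd1 nevertheless lay wholly above DC1b (20%, against 2.99% of all genes after scaling). Klrd1, the CD94 chain of NK cell receptors, was at 70.4, 160 and 148 CPM in DC2 and at 45.1, 17.6, 20.5 and 16.7 CPM in DC1b (edgeR adjusted p = 0.219), and was named after its values were seen. The part of these cells in the differences above was not tested. Leaving immunoglobulin, hemoglobin and neutrophil genes out before scaling, which changes the scaling and removes no other transcript of such cells, left 13 of the 14 genes called, the exception being Igkv6-23, which was itself left out.

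The same comparison in untreated mice allowed a test of whether the difference between DC2 and DC1b changed with TLI. In a fit of all 23 libraries, 24 of 19597 genes (0.122%) had a different contrast, 15 (0.0765%) with DC2 relatively higher after TLI and 9 (0.0459%) relatively lower. All untreated libraries were in batch 1, so the batch term came from the TLI pools alone. The markers of plasmacytoid DC summed to 7280 and 9951 CPM in untreated DC1b, against 149 and 162 CPM in untreated DC2 and 180 to 331 CPM in the 7 TLI libraries, and the part of this in the 24 calls was not tested.

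On the lower side were Cacnb3, Fgd6 and Arpin, given above, whose interaction had adjusted p-values of 0.0481, 0.0409 and 0.0379 by edgeR. Unc119, a carrier of lipid-modified signalling proteins, was at 23.1, 30.5 and 36 CPM in DC2 and at 73, 107, 77.4 and 57 CPM in DC1b after TLI. In untreated mice the order was opposite, with 62.4 and 51.6 CPM in DC2 and 25.1 and 21.7 CPM in DC1b, an interaction of -2.97 (log2; edgeR adjusted p = 0.0249). Bcl6, a transcriptional repressor, was at 23.7, 81.9 and 67.6 CPM in DC2 and at 26.1, 27.6, 188 and 127 CPM in DC1b after TLI, where the batches differed more than the gates. Untreated DC2 held 68 and 59.2 CPM of Bcl6 and untreated DC1b 22.2 and 15 CPM, an interaction of -2.79 (log2; edgeR adjusted p = 0.0297). Itgax, which encodes CD11c, was at 231, 272 and 325 CPM in DC2 and at 115, 98.4, 207 and 185 CPM in DC1b after TLI, a narrower gap than the 479 and 532 against 77.4 and 93.7 CPM of untreated mice (interaction -2.04, log2; edgeR adjusted p = 0.0475).

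On the higher side, each of the 9 genes described here was lower in DC2 than in DC1b in untreated mice. For Nucb2 and Trim30a the libraries lay wholly apart in the opposite order after TLI by CPM, but those of Trim30a overlapped after TMM scaling. Clec9a was at 1.06 and 1.66 CPM in untreated DC2 and at 252 and 209 CPM in untreated DC1b, so that its gap, given above for TLI, had been wider by 4.95 on the log2 scale (edgeR adjusted p = 0.000126). Tcf4, the regulator of plasmacytoid DC fate, was at 39.5 and 41.5 CPM in untreated DC2 and at 1026 and 523 CPM in untreated DC1b, whereas after TLI DC2 had 21.1, 42 and 93.3 CPM and DC1b 64.4, 46.3, 31.1 and 23.4 CPM (interaction 4.27, log2; edgeR adjusted p = 0.0475). Clec12a, whose TLI libraries overlapped, was at 237 and 178 CPM in untreated DC2 and at 1272 and 1539 CPM in untreated DC1b (interaction 2.51, log2; edgeR adjusted p = 0.0116). Trim30a, an interferon-induced gene, was at 162, 235 and 182 CPM in DC2 and at 87.9, 98, 147 and 141 CPM in DC1b after TLI, and at 42 and 85.4 against 280 and 231 CPM without it (interaction 2.32, log2; edgeR adjusted p = 0.0301).

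Cd79b, a chain of the B cell receptor, was at 62.6, 40.3 and 17.4 CPM in DC2 and at 55.7, 54.6, 41.7 and 39.7 CPM in DC1b after TLI. In untreated mice Cd79b was at 0.203 and 0 CPM in DC2 and at 83.6 and 93.9 CPM in DC1b (edgeR adjusted p = 0.0409 for the interaction). Klhl6, an adaptor of ubiquitin ligases in B cells, was at 33.3, 84.9 and 37 CPM in DC2 and at 25.1, 45.5, 39.6 and 19.6 CPM in DC1b after TLI, and at 2.56 and 1.40 against 95.4 and 73.4 CPM in untreated mice (interaction 5.90, log2; edgeR adjusted p = 0.0116). Both genes were thus present in all DC2 libraries after TLI and nearly missing from untreated DC2. B cell markers as a list summed to 1316 to 13960 CPM in DC2 after TLI and to 343 and 1252 CPM in untreated DC2. In DC1b the list summed to 7099 to 46090 CPM after TLI and to 7242 and 4238 CPM without it. Cd79b and Klhl6, in contrast, were lower in DC1b after TLI than without it. Among the DC2 libraries after TLI, pool 4 had the highest sum and the lowest Cd79b. The part of B cells in both results was not tested.

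Nucb2, a calcium-binding protein of the Golgi, was at 49.4, 71.8 and 170 CPM in DC2 and at 36, 40.7, 6.95 and 27.9 CPM in DC1b after TLI, and at 14.3 and 3.95 against 185 and 258 CPM in untreated mice (interaction 6.07, log2; edgeR adjusted p = 0.0303). Cul4b, a scaffold of ubiquitin ligases, was at 18.9, 16.9 and 10.6 CPM in DC2 and at 13.9, 17.5, 34.5 and 24.4 CPM in DC1b after TLI. It had no count in untreated DC2, at least 106-fold below the 15.1 and 14.4 CPM of untreated DC1b (edgeR adjusted p = 0.0116 for the interaction). Gstp2, a glutathione transferase nearly identical to Gstp1, had no count in untreated DC2 either, at least 281-fold below the 40.8 and 37.1 CPM of untreated DC1b. After TLI Gstp2 was at 31.1, 45.8 and 48.4 CPM in DC2 and at 32.5, 57.2, 33.6 and 26.9 CPM in DC1b (edgeR adjusted p = 6.72e-07 for the interaction), and its reads are uncertain because of the near copy. Of the 10 genes named by rank for the interaction, Gstp2 alone was called whichever of 11 libraries was left out. With the pool as replicate block, 12 of the 24 calls for the interaction were kept. Of the genes described here, Arpin, Fgd6, Cacnb3, Cd79b, Itgax, Tcf4 and Trim30a were no longer called for it (edgeR adjusted p from 0.0858 for Arpin and Trim30a to 0.16 for Fgd6), while Unc119, Bcl6, Clec9a, Clec12a, Klhl6, Nucb2, Cul4b and Gstp2 were.

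**Figure D5:**
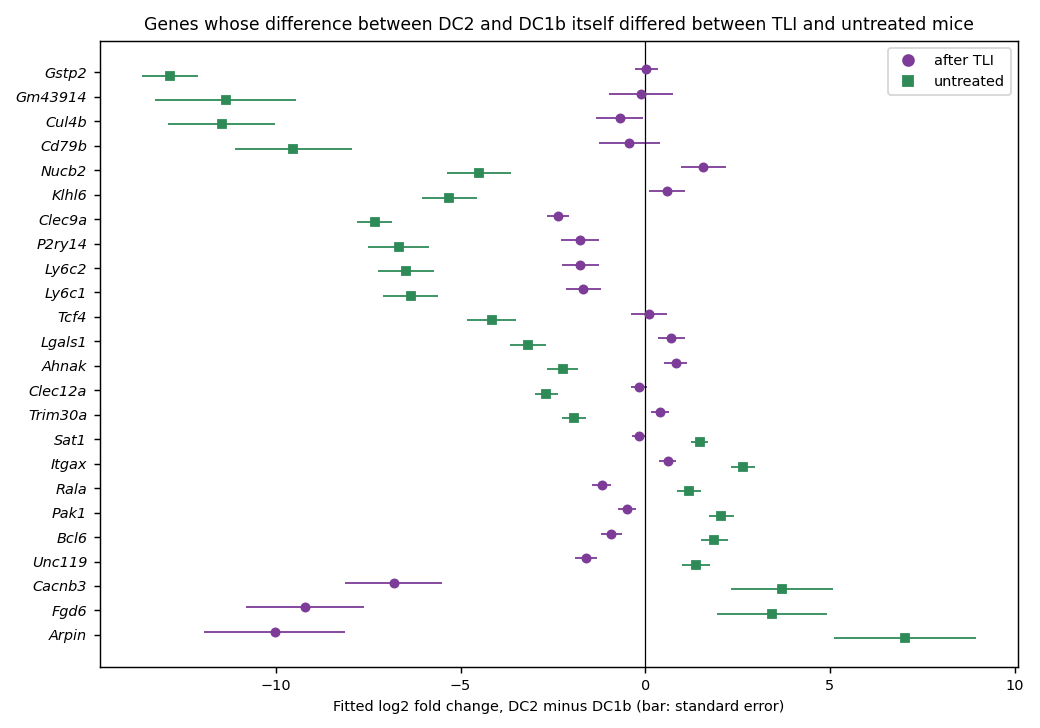
Fitted log2 fold change of DC2 minus DC1b after TLI (circles) and in untreated mice (squares), with bars for the standard error, for the 24 genes whose contrast differed between the treatments by edgeR. For Gstp2 and Cul4b the untreated value rests on a group with no count, and for Cd79b on one with almost none, and depends on the prior count of the fit, as do the TLI values of Arpin, Fgd6 and Cacnb3.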

How the data were processed

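RNA of sorted spleen DC was amplified with a SMARTseq v4 UltraLow Input kit and made into libraries with a KAPA HyperPlus kit. Per the labels' processing notes and the study's methods, the authors trimmed reads with Trimmomatic, aligned them to GRCm38 with HISAT2, and made a gene matrix with StringTie's prepDE script from an Ensembl annotation. The deposited values are expected counts: prepDE estimates a whole-number count from coverage and read length, so that a count is close to, but not exactly, a number of reads. The design had assumed plain counts, and the same tests were used. The authors' own tests used DESeq2. Whether the counting used strand is not given in the sources used here. Of 47729 identifiers, 47310 had a symbol.

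edgeR 4.0.16 in R 4.3.3 (filterByExpr, TMM, glmQLFit and glmQLFTest, Benjamini-Hochberg adjustment over all genes tested, threshold 0.05) was fitted to 11 TLI libraries (DC1a, DC1b and DC2) with batch as a term, leaving 7 residual degrees of freedom, and to all 23 libraries for the interaction. DESeq2 1.42.0 was an alternative. On simulated data with 200 changed genes of 15155, edgeR called 13 of 67 changed 4-fold, 58 of 67 changed 16-fold and 56 of 66 changed 64-fold, with 3 of 130 calls false. DESeq2 had 221 of 382 calls false. For the interaction (18832 genes), edgeR recovered 99 of 200. The changed genes were picked from the more abundant ones, and counts were drawn with the dispersions that edgeR had estimated. No difference between batches, pools or other populations was simulated, so these rates hold for that setting only.

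CPM is relative to the library's total count. Folds of means are of CPM, and fitted changes are on edgeR's log2 scale. Counting intervals are at 95% and, like floors of 3 counts per library, cover counting error only, since amplified reads are not independent molecules. Named genes were the called genes with a symbol, at least 5 CPM in the higher population and no overlap between libraries, ranked by the difference of mean log2(CPM + 1) with a pseudocount of 1, the stained receptors and lineage factors whatever their result, called members of the other lists or their 3 most abundant ones, and the 5 highest and 5 lowest interactions. Lists were described by counts and medians, with no set test. The members, lists and rules were chosen with earlier results of these data known. Pool numbers pair the populations, since a number marks a single pool of mice. Deviations from the group means of same-pool libraries correlated at 0.263, 0.0958 and 0.13 across genes (pools 1, 3 and 4). The group means spanned both batches, so these correlations mix batch with pool and do not measure the pairing alone. The pools are separate sets of mice. The main fits had batch but no pool term, so libraries of different populations from the same pool were treated as independent. Their p-values thus measure the spread between libraries left after population and batch. With the pool as replicate block, 6 of the 14 calls were kept. No 2 libraries were identical. Promoters and their bases came from RefSeq tables of GRCm38.p6.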

Additional observations from a re-analysis of the deposited data

Results flagged for a closer look

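In the 4 DC1b libraries, 122 sets of 4 values were examined, of genes and of library measures such as total counts. In 6 of these sets, all of genes, 1 library lay far from the others. There Dixon's ratio of its gap to the whole range was above the critical value for 4 libraries. This is about the 1 in 20 that chance gives. Dock10 was highest in pool 4 at 287 CPM (ratio 0.914). Irf2 was highest in the same pool at 171 CPM (ratio 0.873). Khdrbs3 was highest in pool 2 at 27.8 CPM (ratio 0.847). Spib, a factor of plasmacytoid DC and B cells, was highest in pool 1 at 15.9 CPM (ratio 0.862). Tbx21, which encodes T-bet, was present in pool 2 alone at 6.63 CPM (ratio 1.0). Tlr3 was highest in pool 3 at 158 CPM (ratio 0.846).

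Of the 24 genes whose difference between DC2 and DC1b differed between TLI and untreated mice by edgeR's interaction term, the 5 lowest and 5 highest by the named-gene rule are given here, with the libraries' values above. The interaction on the log2 scale was -17.06 for Arpin (adjusted p = 0.0379), -12.63 for Fgd6 (0.0409), -10.51 for Cacnb3 (0.0481), -2.97 for Unc119 (0.0249) and -2.79 for Bcl6 (0.0297). On the other side it was 5.90 for Klhl6 (0.0116), 6.07 for Nucb2 (0.0303), 9.10 for Cd79b (0.0409), 10.77 for Cul4b (0.0116) and 12.90 for Gstp2 (6.72e-07). The values of Arpin, Fgd6, Cacnb3, Cd79b, Cul4b and Gstp2 rest on groups with no or almost no counts and are no measure of size.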

How the results depend on the processing

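For DC2 against DC1b after TLI (14 calls by edgeR), the number called was 740 with DESeq2 (253 higher and 487 lower, all 14 among them), 45 with no filter on low counts, 6 with the pool as replicate block, 0 with the 7 libraries alone (864 at an unadjusted p under 0.05), 27 with all 15 TLI libraries, 0 in batch 1 alone (957 unadjusted), 53 in batch 2 alone (12 higher and 41 lower), and 7 without the libraries under 10 CPM for a sorting gene, an alternative chosen after seeing the data. Leaving out 1 library gave 5 to 23 calls: 5 without DC2 of pool 4, 8 without DC2 of pool 3, 9 without DC1b of pool 1 and 23 without DC2 of pool 1, where the median of all genes was -0.264. With at least 10 counts in every library, 3 of 19 calls were higher in DC2. For the interaction (24 calls), the number was 769 with DESeq2, 13 with the pool as replicate block (12 of the 24 among them) and 8 with no batch term, and 5 to 54 with 1 library left out (54 without TLI DC2 of pool 1, 5 without untreated DC1b of pool 2, 7 without untreated DC1b or DC2 of pool 1, TLI DC2 of pool 3 or TLI DC1b of pool 4, and 12 without TLI DC1b of pool 2 or 3). The 14 called genes kept their direction in all fits that gave a value, with 145 values still past the threshold and 111 not. These fits share libraries with the one that chose the genes, so the kept direction is no separate support. For the 10 genes named by rank for the interaction, 95 values were past the threshold and 69 not. The cause of these changes was not tested, beyond the fewer libraries or degrees of freedom of some fits. Depth limited little, since 3 counts stood for at most 0.13 CPM in these 7 libraries.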
